A study of Mus musculus with 17 samples.

Results

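The genes described are 10 members of the integrated stress response, of 26422 genes in the count tables of mouse small-intestinal organoids: Atf4, Atf3, Atf5, Ddit3, Trib3, Nupr1, Chac1, Asns, Slc3a2 and Sesn2. They were taken by symbol, and they had been chosen because earlier results of these data showed how they responded to KPT-330 before and after day 2 and in which cell types they were high, so those values are given as a description without a test. Organoids are cultured crypts from the small intestine of C57BL/6 mice without genetic changes, male and female and 1 to 6 months old, and each library held cells of more than 1000 organoids, pooled. All cultures contained ENR (EGF, Noggin and R-spondin). The 2 starting libraries at day 0 came from ENR+CV, a stem-cell medium with the GSK3 inhibitor CHIR99021 and valproic acid, and 7 libraries came from ENR+CD, in which CHIR99021 with the Notch pathway inhibitor DAPT drives cells towards the Paneth lineage. The other 8 libraries had ENR+CD with 160 nM KPT-330 (selinexor), an inhibitor of the nuclear export receptor XPO1. Days 0.25, 1, 2 and 4 had 1 library of each condition, day 3 had 1 control and 2 KPT-330 libraries, and day 6 had 2 of each. The labels do not say what replicates 1 and 2 stand for, so tests measure the spread between these libraries, which may be technical.

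The integrated stress response starts when 1 of several kinases phosphorylates the translation factor eIF2, which lowers general protein synthesis and favours translation of the transcription factor ATF4. ATF4 then binds composite C/EBP-ATF elements, also called amino acid response elements, and raises genes for amino acid uptake, amino acid synthesis and tRNA charging, together with further transcription factors such as ATF3, ATF5 and CHOP (the product of Ddit3). In secretory epithelia such as Paneth cells the pathway works beside the unfolded protein response, since 1 of the eIF2 kinases, PERK, senses the load of the endoplasmic reticulum. Part of ATF4's control lies in translation, which counts of mRNA do not measure.

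Promoter stretches are shown first because several of the genes share a short element. The window searched ran from 250 bases before to 50 bases after each annotated start, from RefSeq on GRCm38.p6, and the motif was TGATGNAA on either strand (its reverse complement reads TTNCATCA). All 10 genes had a window, 11 windows in all since Atf5 had 2. The motif was in the windows of 5 genes, Atf3, Trib3, Chac1, Asns and Nupr1, or 50% of them, against 4.51% of all 27025 genes with a window (3.97% of 32851 windows of the same length). It was not in those of Atf4, Atf5, Ddit3, Slc3a2 and Sesn2, which says only that these letters are not in this window. A match is a description and not a shown binding site. Positions of matches count from the RefSeq start of each window. The gene spans printed further on are GENCODE vM21 and can start elsewhere, as for Asns and Trib3 and, by more, for Atf3 and Nupr1. The stretches shown for Atf3 and Nupr1 lie wholly inside the spans printed for those genes. The stretches below read 5′ to 3′ on the gene's strand, and capitals mark the match.
Atf3, chr1:191183396-191183483, minus strand, match 110 bases upstream of the start: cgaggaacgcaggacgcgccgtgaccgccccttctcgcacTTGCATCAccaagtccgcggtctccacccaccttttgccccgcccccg
Nupr1, chr7:126625533-126625620, minus strand, match 110 bases upstream: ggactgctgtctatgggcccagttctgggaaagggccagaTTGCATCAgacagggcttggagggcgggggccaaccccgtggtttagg
Chac1, chr2:119351009-119351096, plus strand, match 193 bases upstream: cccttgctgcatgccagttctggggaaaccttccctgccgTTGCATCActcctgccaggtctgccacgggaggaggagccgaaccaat
Asns, chr6:7693210-7693272, minus strand, match 23 bases upstream: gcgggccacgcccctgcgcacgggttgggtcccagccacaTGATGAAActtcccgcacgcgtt
Trib3, chr2:152344028-152344057, minus strand, match 14 bases downstream: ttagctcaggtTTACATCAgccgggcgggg
Atf3, Nupr1 and Chac1 carried the same 8 letters, TTGCATCA. Asns had the match on the other strand.

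Single cells were profiled by Seq-Well S3, and unique molecular identifier (UMI) counts were summed over the kept cells of each library, 19877 cells in all. Library totals ran from 3458887 to 12433109 UMIs and medians per cell from 2676 to 8463, and 14 barcodes occurred in more than 1 library, at most 1 between any pair. Every one of the 10 genes was counted in all 17 libraries, from as few as 19 UMIs (Chac1) to 16317 (Nupr1). Epithelial markers (Epcam, Krt8 and Vil1 among them) summed to 3114 to 4999 CPM (UMIs per 1e+06 UMIs, TMM-scaled as below), against 1.27 to 7.10 for a list of 10 markers of immune, stromal and endothelial cells, of which Ptprc, Cd3e and Col3a1 had a median of 0. Levels of whole libraries below are CPM after trimmed-mean (TMM) scaling. The scaling matters late: with KPT-330 the factors at days 3 to 6 were 0.706 to 0.898, against 1.02 to 1.16 in the controls, and Paneth marker genes took 8.06% to 22.0% of UMIs against 5.59% to 14.2%. Without scaling factors the median gene was lower with KPT-330 at each day, by a log2 ratio of -0.04, -0.07, -0.15, -0.26, -0.33 and -0.36 from day 0.25 to day 6, so values by library totals are given beside the scaled ones. Sums over a library do not separate a change in the cells' make-up from a change in RNA per cell.

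Of the transcription factors, Atf4, the effector of the pathway (chr15:80255184-80257541), had higher scaled values with KPT-330 at every day except day 0.25, and more so from day 3. Atf3, a stress-induced repressor and activator (chr1:191170296-191218039), had higher values from day 0.25 on. Atf4 in ENR+CD stood at 576 CPM at day 0.25, 335 at day 1, 408 at day 2, 387 at day 3, 525 at day 4 and 587 and 541 at day 6. Atf4 with KPT-330 was 494, 381 and 519 at days 0.25, 1 and 2, then 749.7 and 717 at day 3, 823 at day 4 and 799 and 712 at day 6. The early libraries of both conditions overlapped, whereas each of the 5 late KPT-330 libraries lay above all 4 late controls on this scaled measure. By library totals the late groups overlapped: replicate 1 of KPT-330 at day 6 had 564 CPM and the day 4 control 606. The log2 fold change was 0.11 ± 0.15 (SE, 3 against 3 libraries) for days 0.25 to 2 and 0.64 ± 0.13 (SE, 5 against 4 libraries) for days 3 to 6. Atf3 in ENR+CD was 251, 213 and 533 at the 3 early days, 453 at day 3, 669.9 at day 4 and 898 and 1020.3 at day 6. Atf3 with KPT-330 was 573, 426 and 895, then 706 and 1468 at day 3, 1951 at day 4 and 1754 and 1739 at day 6. It was above its same-day control at all 6 days, by about the same log2 amount early (0.99 ± 0.23) and late (1.15 ± 0.19), although the lower day 3 library (706) lay below the day 6 controls.

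Atf5, an ATF4 relative with roles in mitochondrial stress (chr7:44812256-44816658), and Ddit3, which encodes CHOP (chr10:127290774-127296288), both had higher values at every day with KPT-330, and more so late. Atf5 in ENR+CD was 97.3, 48.0 and 31.7 at days 0.25, 1 and 2, then 28.2 at day 3, 59.7 at day 4 and 69.1 and 69.5 at day 6. Atf5 with KPT-330 was 116, 57.9 and 39.7, then 74.2 and 74.8, 103, and 112 and 167. Both conditions started high at day 0.25 and were lowest at day 2 or 3, and the late groups did not overlap after scaling. By library totals they did, with 64.5 in replicate 1 of KPT-330 at day 3 and 74.2 in replicate 2 of the day 6 control. Ddit3 in ENR+CD was 14.8, 14.1 and 24.9 early, and 24.1, 34.4, 36.1 and 34.8 late. Ddit3 with KPT-330 was 23.0, 20.7 and 43.1 early, and 54.3, 79.0, 81.5, 94.2 and 86.6 late. Its lowest late KPT-330 library was above its highest control of any day. The log2 fold changes were 0.29 ± 0.14 early and 1.08 ± 0.12 late for Atf5, and 0.68 ± 0.14 early and 1.37 ± 0.11 late for Ddit3. Exons of Atf5 overlap Nup62 and Il4i1 on the opposite strand, and those of Ddit3 overlap Mars and Gm4189. Whether the counting used strand is not given in the sources used here, so reads of such partners may not be told apart.

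Trib3 and Nupr1 act beside these factors: Trib3 (chr2:152337422-152344032) encodes a pseudokinase that CHOP and ATF4 induce and that restrains ATF4, and Nupr1 (chr7:126623249-126630861) encodes a small stress-induced chromatin protein. Trib3 in ENR+CD was 22.6 at day 0.25, then 6.86, 7.61, 4.70, 9.63 and 18.3 and 14.99 at day 6. Trib3 with KPT-330 was 9.04, 6.72 and 8.93 early, and 14.2, 15.6, 29.0, 36.5 and 34.9 late. It was the gene that differed most between the phases, with a log2 fold change of -0.40 ± 0.26 early, which rests on the high control at day 0.25 and was 0.13 without that day, and 1.36 ± 0.20 late. Nupr1 in ENR+CD was 45.5, 41.4, 91.2, 193, 589.6 and, at day 6, 1289 and 1200.4. Nupr1 with KPT-330 was 104, 77.2, 292, then 649.7 and 633 at day 3, 1847 at day 4 and 2978 and 2890.4 at day 6. Values were higher at later days in both conditions, and KPT-330 was above its control at every day, by a log2 fold change of 1.28 ± 0.17 early and 1.49 ± 0.14 late. The late groups overlapped, with both day 6 controls above both day 3 KPT-330 libraries.

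The 4 remaining genes work downstream, in amino acid and redox balance. Chac1 (chr2:119351229-119354381) encodes an enzyme that breaks down glutathione. Its ENR+CD values were 14.3, 4.08 and 7.25 early and 6.60, 24.2, 35.1 and 46.9 late. Chac1 with KPT-330 was 12.7, 5.32 and 29.1 early and 44.8, 41.4, 117, 105 and 140.3 late. The log2 fold change of 2.04 ± 0.26 late was the largest of the 10, and the early one, 0.90 ± 0.37, rests on day 2: it was 0.01 without that day. Slc3a2 (chr19:8706882-8723369), the heavy chain of the leucine and cystine transporters, was 108, 65.5 and 118 early and 99.8, 107, 131 and 133 late in ENR+CD. Slc3a2 with KPT-330 was 122, 81.7 and 191 early and 256, 293, 293, 303 and 328 late. All late KPT-330 libraries were above every control of any day (log2 fold change 1.37 ± 0.10 late, 0.41 ± 0.12 early). Asns (chr6:7675169-7693254), asparagine synthetase, was 157, 80.7 and 94.3 early and 114, 159.8, 165 and 169.5 late in ENR+CD. Asns with KPT-330 was 146, 76.1 and 98.8 early and 141, 139, 204, 231 and 326 late. Sesn2 (chr4:132492032-132510501), which restrains mTORC1 when leucine is short, was 23.3, 14.5 and 14.2 early and 15.9, 19.6, 20.9 and 23.0 late in ENR+CD. Sesn2 with KPT-330 was 22.0, 10.9 and 11.9 early and 16.2, 14.8, 23.2, 29.8 and 37.5 late. These last 2 genes had the smallest late values, 0.52 ± 0.11 for Asns and 0.34 ± 0.14 for Sesn2, with early values of -0.03 ± 0.14 and -0.23 ± 0.17. For both, the day 6 libraries with KPT-330 were above both controls after scaling. By library totals replicate 1 with KPT-330 was below both, at 163 against 168 and 181 for Asns and 21.05 against 21.3 and 24.6 for Sesn2.

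**Figure D1:**
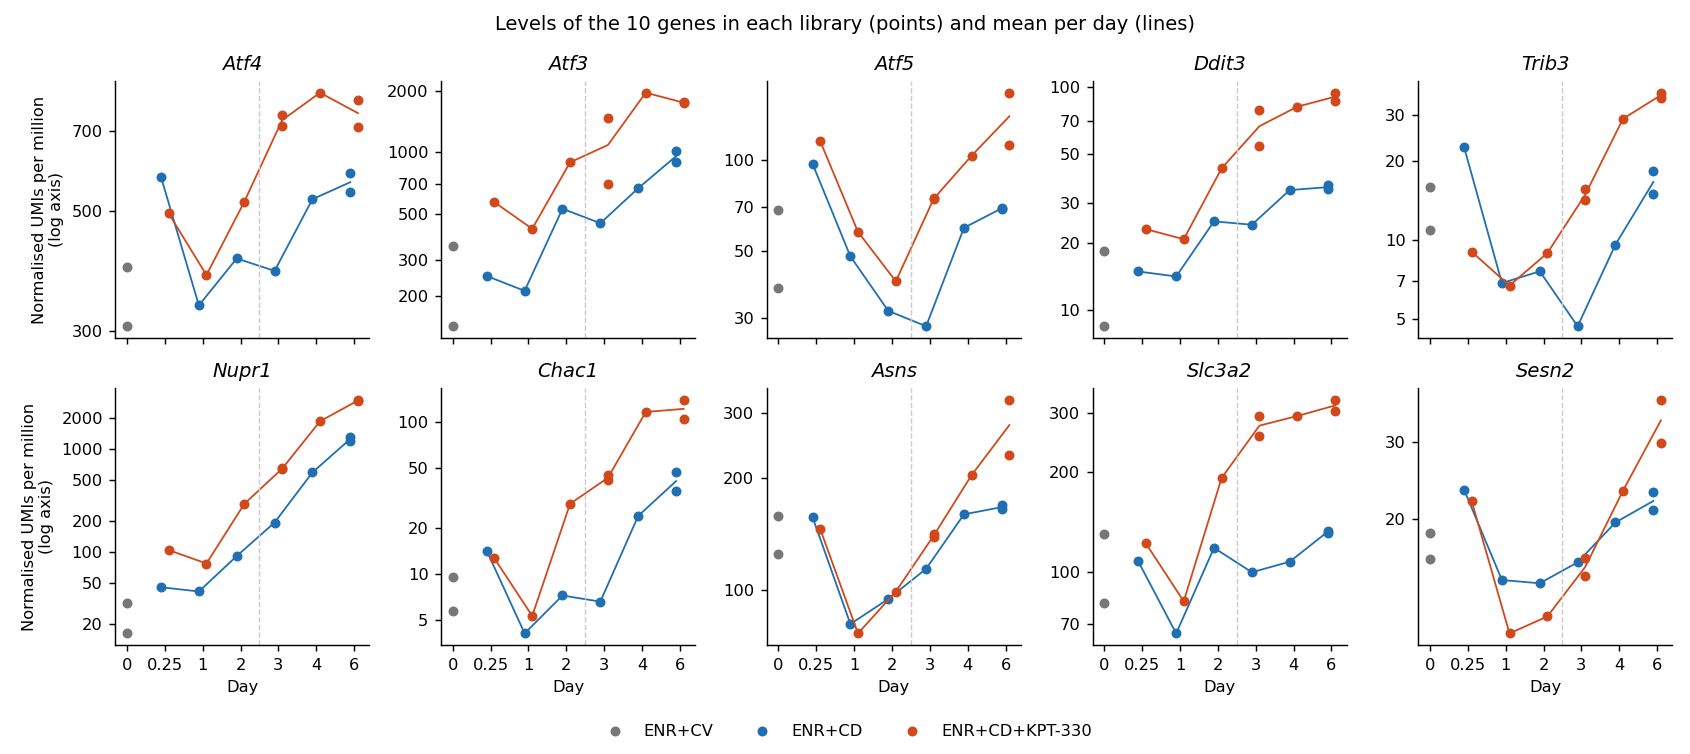
TMM-scaled CPM (log axis) by day for each of the 10 genes, with 1 point per library, lines through the day means and a dashed line between days 2 and 3. From day 3 the KPT-330 points (orange) lie above the same-day controls (blue) for 9 genes, while Sesn2 separates only at days 4 and 6.

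Over the 10 genes the median log2 fold change was 0.35 early, with 7 of 10 higher, and 1.26 late, with 10 of 10 higher, beside medians of -0.01 and 0.01 over all 12812 genes. The late fold ran from 1.27 (Sesn2) and 1.44 (Asns) through 1.56 (Atf4), 2.12 (Atf5), 2.22 (Atf3), 2.57 (Trib3), 2.58 (Ddit3), 2.59 (Slc3a2) and 2.82 (Nupr1) to 4.11 (Chac1). Adjacent genes in this order differed by less than the sum of their standard errors on the log2 scale, except Atf4 from Atf5 and Nupr1 from Chac1. The late minus early difference on the log2 scale was 1.76 ± 0.33 for Trib3, 1.14 ± 0.45 for Chac1, 0.96 ± 0.15 for Slc3a2, 0.80 ± 0.18 for Atf5, 0.69 ± 0.18 for Ddit3, 0.57 ± 0.22 for Sesn2, 0.55 ± 0.18 for Asns, 0.53 ± 0.20 for Atf4, 0.21 ± 0.22 for Nupr1 and 0.17 ± 0.30 for Atf3. Atf3 and Nupr1 thus stood apart as genes with early values close to their late ones.

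These differences were what the genes were chosen by, and the counts below are given with their background and nothing is read from them. By edgeR's quasi-likelihood test at an adjusted p of 0.05, 1 of the 10 (Nupr1) was called early, where 0.5% of all genes were, and 9 (all but Sesn2) late, where 28.9% of all genes were called and 15.3% were called higher. The backgrounds rest on single days: the late one moved from 3703 genes to 2132 without day 3 and 2044 without day 4, and the early one from 64 to 7 without day 2 and to 175 without replicate 2 of KPT-330 at day 6. None was called for late minus early, where edgeR called 0 genes of 12812 (0%), 1333 had an unadjusted p under 0.05 and DESeq2 called 56. KPT-330 was above control at every early day for 5 genes (Atf3, Atf5, Ddit3, Nupr1 and Slc3a2; 19.7% of all genes), at every late day for 9 (29.1%) and at all 6 days for the same 5 (12.1%). Every late KPT-330 library was above every late control for 4 genes (Atf4, Atf5, Ddit3 and Slc3a2; 8.08%), and no gene had such a gap early (3.69%). At day 6 both KPT-330 libraries exceeded both controls for all 10 (23% of all genes). These counts use the scaled values. By library totals the late groups overlapped for Atf4 and Atf5, and the day 6 pattern was absent for Atf4, Asns and Sesn2. Asns was then also below control at days 3 and 4, by log2 ratios of -0.04 and -0.01.

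**Figure D2:**
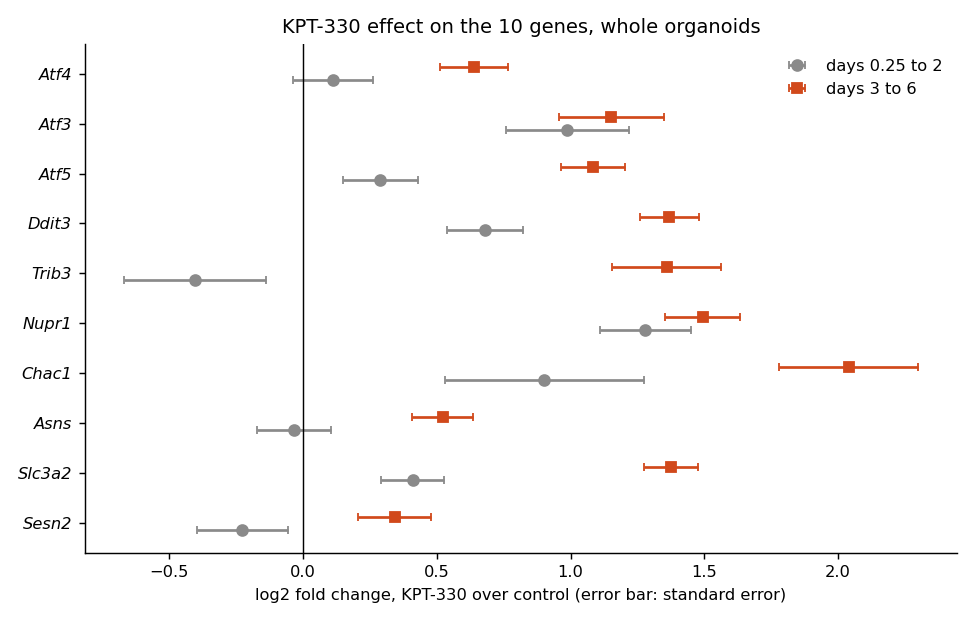
Log2 fold change of KPT-330 over control for each gene, days 0.25 to 2 (grey) and days 3 to 6 (orange), with standard errors as bars. The 2 points nearly coincide for Atf3 and Nupr1 and lie furthest apart for Trib3, from -0.40 to 1.36.

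By library totals, with no scaling factors, the late log2 fold changes were smaller for every gene: 1.67 ± 0.27 for Chac1, 1.11 ± 0.15 for Nupr1, 0.99 ± 0.13 for Ddit3, 0.99 ± 0.12 for Slc3a2, 0.98 ± 0.20 for Trib3, 0.77 ± 0.21 for Atf3, 0.72 ± 0.16 for Atf5, 0.25 ± 0.13 for Atf4, 0.15 ± 0.14 for Asns and -0.03 ± 0.16 for Sesn2. The median of all genes moved to -0.38 on that scale, so 10 of 10 lay above it. The late minus early difference became negative for Atf3 (-0.12 ± 0.32) and Nupr1 (-0.07 ± 0.22), with a median of all genes of -0.24. The direction of Sesn2 late, and of Atf3 and Nupr1 in the comparison of phases, therefore turned with the scaling. Across all genes the late calls split into 1956 higher and 1747 lower with scaling factors and 382 higher and 5613 lower without, and the early calls into 45 and 19 with them and 19 and 32 without.

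Other measures moved with KPT-330 as well. A list of 10 genes of cell dissociation and the immediate-early response (Fos, Jun and Egr1 among them), all measured, summed to 2629, 4096 and 4534 CPM (lowest, median and highest) in the late controls and 3505, 5589 and 6312 in the late KPT-330 libraries, and 10 of 10 were called higher late, beside 15.3% of all genes, but 2 of 10 by library totals. Early, that list summed to 1807, 2234 and 3062 in the controls and 2164, 3162 and 3181 with KPT-330, with 0 of 10 called, and 2084 and 3604 in ENR+CV. Its part in the values of the 10 stress genes was not tested. The share of Paneth-like cells, described below, also moved. A cluster of 162 cells, typed enterocyte-like, held 160 KPT-330 cells, 134 of them in 1 library (day 6, replicate 1), and had a median of 25% mitochondrial UMIs. Without it the late log2 fold changes of Chac1 and Nupr1 were 2.07 and 1.51, and no gene changed its direction.

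The study made its early comparison in stem II and stem III cells, and the same contrast was taken here in stem II/III-like cells of days 0.25 to 2. They numbered 873 against 637 cells (control against KPT-330) at day 0.25, 212 against 178 at day 1 and 115 against 66 at day 2. Stem III-like cells, the cycling ones, made up 64.9% against 37.0%, 56.6% against 53.4% and 87.8% against 86.4% of them. Nupr1 was 43.0, 12.8 and 3.72 CPM of these cells' UMIs in the controls and 102, 80.5 and 62.3 with KPT-330, although the day 2 control rests on 3 UMIs. Atf3 was 243, 95.0 and 208 in the controls and 575, 247 and 185 with KPT-330, so it was higher at days 0.25 and 1 and not at day 2. Trib3 was 24.1, 6.38 and 6.19 against 10.4, 9.75 and 1.78, the last from 1 UMI. The log2 fold changes were 1.86 ± 0.25 for Nupr1, 0.93 ± 0.19 for Atf3, 0.69 ± 0.30 for Ddit3, 0.28 ± 0.15 for Slc3a2, 0.25 ± 0.16 for Atf5, 0.15 ± 0.37 for Chac1, 0.01 ± 0.14 for Asns, 0.00 ± 0.13 for Atf4, -0.10 ± 0.26 for Sesn2 and -0.87 ± 0.36 for Trib3 (SE, 3 against 3 libraries). The median was 0.20, beside 0.00 over 9453 genes. Without day 0.25 the Nupr1 value was 3.01. The genes were chosen by their response to KPT-330, so calls among them are given with their background and nothing is read from them. Atf3 and Nupr1 were called higher, where 0.772% of all genes were called higher and 0.434% lower. In all 1.21% were called (114 genes, 39 without day 1 and 255 without day 2). Atf4, Asns, Sesn2 and Chac1 were within 1 standard error of 0.

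Time without KPT-330 was not itself used to choose the genes, and in that contrast the members were tested among all genes. The contrast is not free of the choice, which also drew on the types in which the genes were high. Across these controls the Paneth-like share went from 0.701% (day 0.25) up to 45.8% and 39.0% (day 6, replicates 1 and 2). The part of this shift in the changes below was not tested. The contrast also shares its control libraries with the KPT-330 contrast. The controls of days 0.25 and 1 are replicate 1 and those of days 2 to 4 replicate 2, so replicate number and time overlap and can be told apart only in part. By edgeR Nupr1 rose: from 45.5, 41.4 and 91.2 at days 0.25 to 2 to 193, 589.6, 1289 and 1200.4 at days 3 to 6, a log2 change of 3.80 ± 0.65 or 13.97-fold (edgeR quasi-likelihood test, adjusted p = 0.0119, 4 against 3 libraries), higher in 4 of 4 late libraries. This call was lost without the day 1 library (log2 3.58, adjusted p = 0.059), where no gene at all was called. In this contrast 17.4% of genes were called, 7.99% higher and 9.39% lower. For Atf3 the log2 change was 1.22 ± 0.42 (adjusted p = 0.0706), for Ddit3 0.86 ± 0.29 (0.0667) and for Chac1 1.72 ± 0.60 (0.0716), none past the threshold, although DESeq2 called all 3 (adjusted p = 0.0164, 0.0328 and 0.0151) and edgeR called Atf3 and Ddit3 without the day 2 library and Chac1 without the day 3 library. The other 6 had adjusted p of 0.175 (Asns, 0.48 ± 0.24) to 0.964 (Trib3, -0.04 ± 0.51). Asns passed without the day 0.25 library (0.81, adjusted p = 0.0329). Of the 10, only Nupr1 had every late control above every early one, a pattern that 15.6% of genes showed. None of the 10 passed the test between early ENR+CD and ENR+CV, where 0.265% of genes were called and 0.0856% called higher: edgeR's adjusted p was 0.363 for Nupr1 (1.28 ± 0.72) and higher for the rest. With no filter on low counts Nupr1 passed (1.29, adjusted p = 0.000411).

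Cell types were rebuilt by clustering with the 10 genes and the other pathway genes left out, and are named X-like from markers that the study drew from these samples. Of the untreated cells, Paneth-like cells (lysozyme-rich secretory cells of the crypt base) had the highest mean of 8 of the 10 genes. The libraries behind these means differ in days: 2 to 6 for both Paneth groups, 0 to 1 for stem II-like and 0 to 2 for early secretory-like cells. Type and day therefore overlap in this ranking. Lyz1 was among the markers used to name Paneth-like cells, so its level is no independent check on the names. It averaged 21235 CPM of the cells' UMIs in Paneth-like and 31817 in early Paneth-like cells, and 2029.8 or less elsewhere. The study's own marker list for Paneth cells holds Nupr1, Atf3 and Chac1, so their place there is not independent of these samples. Levels below are means ± SD over untreated libraries with at least 20 cells of the type, with n libraries.

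Nupr1 was highest in the Paneth branch, at 1706 ± 938 (n = 5) in Paneth-like and 871 ± 637 (n = 5) in early Paneth-like cells, and at 67.0 ± 62.6 (n = 7) in stem I-like cells, the next in order. Its Paneth-like values by library were 783 at day 2, 782 at day 3, 1655 at day 4 and 2589 and 2720.4 at day 6, so it differed between days inside the type. Atf3 was 1381 ± 336 in Paneth-like, 739 ± 378 (n = 9) in enterocyte-like and 680 ± 344 in early Paneth-like cells, and 82.4 ± 22.0 (n = 4) in early secretory-like cells. Chac1 was 57.2 ± 32.5, 25.7 ± 24.0 in early Paneth-like and 14.3 ± 8.22 in enterocyte-like cells, against 1 UMI in all over the 4 libraries with early secretory-like cells. Within the same library, Paneth-like cells exceeded stem III-like cells in 5 of 5 libraries for Nupr1, Atf3 and Chac1, by log2 6.34 ± 1.37, 3.12 ± 0.94 and 4.29 ± 0.53 (SD, n = 5, with 1 added to each value).

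Atf4 varied less between types. It was 758 ± 81.6 in Paneth-like, 614 ± 104 in early Paneth-like, 496 ± 128 in enterocyte-like, 441 ± 89.0 in enteroendocrine-like and 261 ± 48.6 in stem I-like cells, the lowest. Paneth-like cells exceeded stem III-like cells by log2 1.34 ± 0.29 within libraries, 5 of 5. Asns followed with 250 ± 38.4 and 205 ± 29.6 in the Paneth-like and early Paneth-like cells, 113 to 132 in 5 other types and 69.8 ± 55.0 in enterocyte-like cells. Atf5 (90.1 ± 38.6 in Paneth-like, 62.0 ± 40.2 in enterocyte-like and 32.7 ± 3.70 in early secretory-like cells), Ddit3 (45.4 ± 9.96, 42.2 ± 19.0 and 8.92 ± 2.21) and Trib3 (17.4 ± 11.96, 15.9 ± 7.25 and 12.9 ± 13.1) had enterocyte-like cells next to Paneth-like cells. For these 3 the first 2 types differed by less than their spread. Within libraries Ddit3 was higher in Paneth-like than in enterocyte-like cells in only 1 of 5, Trib3 in 3 of 5 and Atf5 in 4 of 5. For Atf5 the mean log2 ratio was 1.37 ± 0.89 (SD). Its enterocyte-like values were 56.3 to 131 at days 0 to 1 and 18.0 to 50.3 at days 2 to 6. The Trib3 level of early secretory-like cells rests on 1 to 4 UMIs per library. In early Paneth-like cells Trib3 was 2.72 to 9.25, from 2 to 5 UMIs per library.

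Slc3a2 and Sesn2 had another order. Slc3a2 was highest in enterocyte-like cells, 168 ± 69.1 (n = 9) against 140 ± 33.5 in Paneth-like cells, and within libraries the enterocyte-like cells were higher in 5 of 5, the Paneth-like to enterocyte-like log2 ratio being -0.65 ± 0.14. Sesn2 was highest in enteroendocrine-like cells, the hormone-secreting cells, at 35.8 ± 17.6 (n = 8), and lowest in early Paneth-like cells at 9.38 ± 2.76, with 12.9 ± 3.48 in Paneth-like cells. Paneth-like cells were below enteroendocrine-like cells for Sesn2 in 5 of 5 libraries, by log2 -1.67 ± 0.54. The other Sesn2 means lay between 12.03 and 20.3 and overlapped within their spread.

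**Figure D3:**
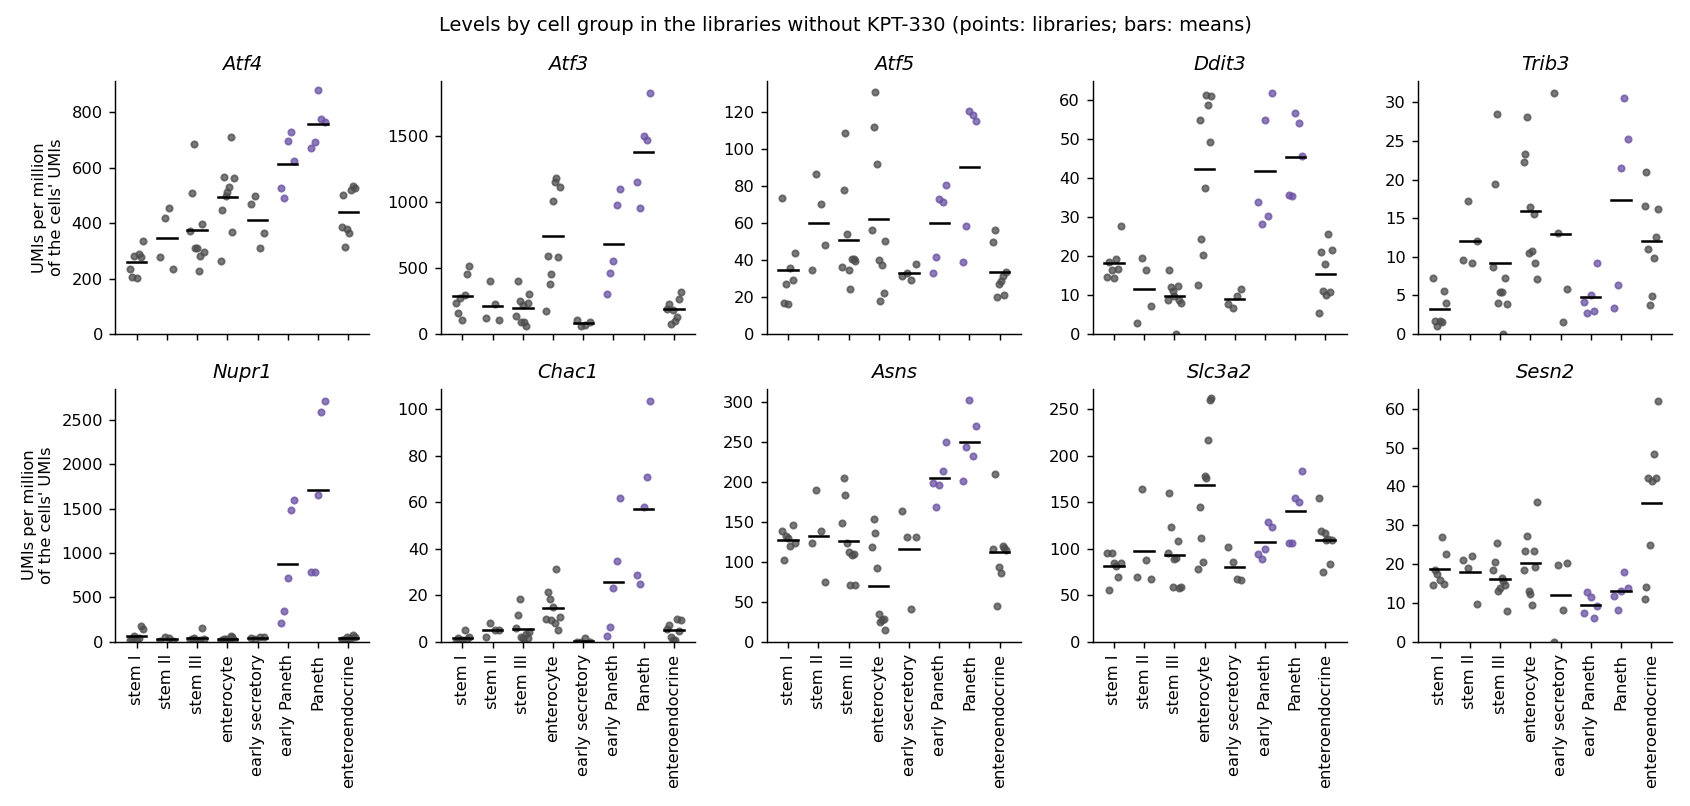
CPM of each type's UMIs for the 10 genes in untreated libraries, 1 point per library with at least 20 cells of the type, bars at the means and the 2 Paneth groups in purple. Nupr1 reaches 2720.4 in Paneth-like cells and at most 172 outside the purple groups, whereas Slc3a2 peaks in enterocyte-like and Sesn2 in enteroendocrine-like cells.

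Within cell types, the fits covered different days: 2 to 6 for both Paneth groups, 0.25 to 3 for stem III-like, 0.25 to 2 for early secretory-like, and 0.25 to 6 for stem I-like, enterocyte-like and enteroendocrine-like cells. Types and phases therefore cannot be told apart across all 7. KPT-330 gave higher values of all 10 genes in Paneth-like cells (median log2 fold change 0.75) and in early Paneth-like cells (0.98), of 8 of 9 with enough counts in enteroendocrine-like (0.29), 7 of 10 in enterocyte-like (0.25), 6 of 8 in stem I-like (0.22), 6 of 8 in stem III-like (0.28) and 6 of 6 in early secretory-like cells (0.37). The share of all genes called was 3.51%, 4.79%, 2.37%, 2.56%, 4.77%, 0.618% and 0.242% in these types, and the median gene lay between -0.01 and 0.00 in each. The enterocyte-like cells include the cluster found almost only with KPT-330, and without it 5 of 10 genes were higher there (median 0.07), with Atf3 at -0.02 ± 0.20, Asns at -0.16 ± 0.15 and Nupr1 at 1.35 ± 0.32. Nupr1, Atf5 and Slc3a2 were higher in all 7 types, also without that cluster. Nupr1 ran from 0.80 ± 0.14 in Paneth-like, where its control level was highest, to 2.26 ± 0.31 in stem III-like cells. The stem III-like controls held only 15, 2 and 2 UMIs of Nupr1 at days 1, 2 and 3. Atf3 ran from 0.09 ± 0.21 in enterocyte-like to 1.71 ± 0.32 in early secretory-like cells, and the first of these was -0.01 by library totals.

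Chac1, Trib3 and Slc3a2 are given by library in Paneth-like cells. Chac1 in Paneth-like cells was 28.8, 24.7, 57.7, 70.9 and 104 CPM in the controls of days 2, 3, 4 and 6, and 115, 80.1, 83.9, 181, 99.99 and 183 with KPT-330. Slc3a2 in the same cells was 107, 106, 154, 151 and 183 in the controls and 199, 210.1, 241, 257, 212 and 359 with KPT-330, so no KPT-330 library was below any control. Trib3 was 3.38, 6.32, 21.6, 30.6 and 25.3 in the controls, the first 2 from 2 and 10 UMIs. With KPT-330 Trib3 was 29.6, 16.1, 16.0, 39.0, 31.7 and 45.1, so the groups overlapped. The log2 fold changes were 1.39 ± 0.19 for Chac1 in Paneth-like, 2.20 ± 0.25 in early Paneth-like and 0.35 ± 0.32 in enterocyte-like cells. For Trib3 they were 0.94 ± 0.20, 1.67 ± 0.42 and -0.04 ± 0.25, and -0.33 ± 0.47 in enteroendocrine-like cells. Slc3a2 had 1.01 ± 0.12, 0.91 ± 0.13 and 0.63 ± 0.13, and 0.13 ± 0.17 in stem III-like cells. Over days 2 to 6 alone, as in the Paneth groups, enterocyte-like cells had 0.62 ± 0.38 for Chac1, 0.28 ± 0.28 for Trib3 and 0.79 ± 0.14 for Slc3a2, and enteroendocrine-like cells 1.60 ± 0.78, -0.12 ± 0.49 and 0.43 ± 0.14. Differences between types were not tested. Ddit3 was 0.86 ± 0.11 in Paneth-like and 1.11 ± 0.39 in stem III-like cells, and 0.28 ± 0.25 in stem I-like cells. Sesn2 was 0.69 ± 0.21 in Paneth-like cells and -0.41 ± 0.29 and -0.59 ± 0.36 in stem I-like and stem III-like cells, and Asns was -0.33 ± 0.13 in stem I-like cells. The stem III-like controls of days 1, 2 and 3 held few UMIs, 11, 7 and 0 of Ddit3 and 13, 10 and 6 of Sesn2. By library totals the Paneth-like values were 1.25 for Chac1, 0.86 for Slc3a2, 0.79 for Trib3 and 0.04 for Asns.

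**Figure D4:**
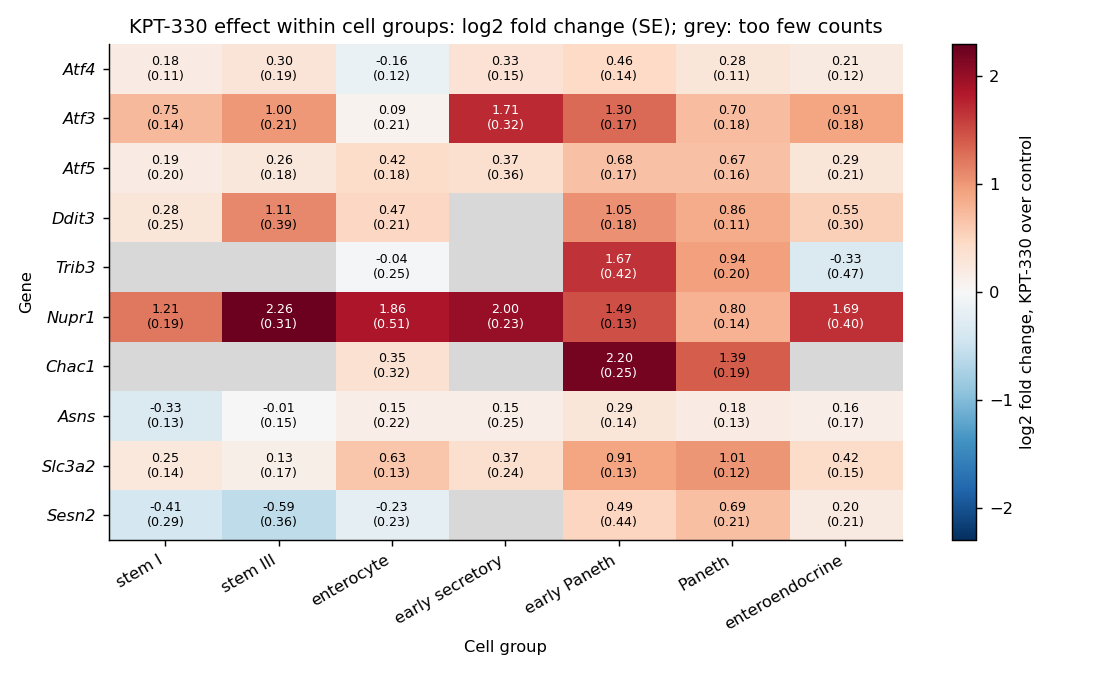
Log2 fold change of KPT-330 over control (colour and upper number) with its standard error in parentheses, for each gene (rows) and type (columns), grey where counts were too few for the fit. The Paneth and early Paneth columns are above 0 for all 10 genes, and Nupr1 is above 0 in all 7 columns, from 0.80 to 2.26.

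Shares of cell types moved with KPT-330 in the late libraries. Paneth-like cells were 19.0% of control cells at day 3 against 32.9% and 25.2% with KPT-330, 32.4% against 47.8% at day 4, and 45.8% and 39.0% against 64.5% and 54.9% at day 6. At days 0.25, 1 and 2 they were 0.701%, 2.11% and 6.01% in controls and 0.534%, 1.96% and 6.24% with KPT-330. When both conditions of a day were given the same shares, over the types with at least 20 cells in each, the mean late log2 ratio was 1.43 for Chac1 (1.92 with each condition's own shares), 0.77 for Nupr1 (1.21), 0.70 for Slc3a2 (1.01), 0.69 for Trib3 (1.09), 0.58 for Ddit3 (1.00), 0.48 for Atf3 (0.93), 0.46 for Atf5 (0.71), 0.18 for Sesn2 (-0.07), 0.11 for Atf4 (0.34) and 0.01 for Asns (0.11). These ratios use library totals. With equal shares Asns averaged near 0 late, and Atf4 was 0.40, 0.07 and -0.15 at days 3, 4 and 6. Nupr1 and Atf3 had larger early than late values with equal shares (1.35 and 0.80 early). The same order held with each condition's own shares (1.39 and 0.95 early).

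The rest of the pathway was read from 6 lists of 61 other genes, of which 58 had counts enough for the test (not Slc7a3, Bcat1 and Fgf21), and these were tested. Late, 35 of 58 were higher and 1 lower with KPT-330 at an adjusted p under 0.05 (edgeR), beside 15.3% of all genes higher and 13.6% lower, and the median log2 fold change was 0.50. By library totals 16 were higher and 8 lower. Early, none of the 58 passed (median 0.01): edgeR called 64 genes of 12812 in all, 1911 had an unadjusted p under 0.05, DESeq2 called none of the 58, and edgeR with no low-count filter called 2 lower. For late minus early 56 of 58 had a higher late value on the scaled measure, with a median of 0.53 beside 0.03 over all genes. The median of all genes moved to -0.24 by library totals. In this contrast edgeR called none of the 58, or 12 with no low-count filter and 1 without day 6, and DESeq2 3. In stem II/III-like cells early, edgeR called 0 of 54, but 1 higher with no low-count filter, 1 with DESeq2's size factors and 3 without day 2.

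Amino acid transporters were higher for 5 of 7 tested late, 2 by library totals. Slc6a9, a glycine transporter, was 7.39, 14.8, 14.4 and 15.2 in the late controls and 17.1, 26.3, 38.0, 38.4 and 44.3 with KPT-330 (log2 fold change 1.48 ± 0.17, edgeR adjusted p = 0.000192). Slc7a1, a carrier of cationic amino acids, was 61.7, 64.4, 71.5 and 71.8 against 96.0, 133, 158, 143 and 181 (1.12 ± 0.13, adjusted p = 0.000195). For both, every late KPT-330 library was above every late control on the scaled values. The enzymes of amino acid synthesis and one-carbon metabolism were higher for 10 of 13 and lower for 1 (5 and 2 by library totals). Aldh1l2, a mitochondrial folate enzyme, had the largest value of all 58, with 9.29, 16.5, 24.1 and 33.6 against 24.3, 24.0, 49.1, 76.4 and 130.4 (1.68 ± 0.20, adjusted p = 0.000251). Psat1 of serine synthesis rose by 1.22 ± 0.15 (0.000274), Cth, which makes cysteine, by 1.17 ± 0.17 (0.000588), and Gpt2, a mitochondrial alanine aminotransferase, by 0.96 ± 0.12 (0.000274). Cbs, the enzyme before Cth in transsulfuration, was called lower, with a log2 fold change of -0.74 ± 0.20 (0.0148), a call lost without day 6 (-0.45 ± 0.20, edgeR adjusted p = 0.109).

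Aminoacyl-tRNA synthetases were higher for 7 of 12 late, with a median of 0.44, but 1 of 12 by library totals, where the median was 0.06. Their windows held TGATGNAA in 5 of 8 genes matched, or 62.5%, against 4.51% of all genes with a window. This was the highest share of the pathway lists. The others had 2 of 5 (transporters), 1 of 3 (C/EBP and related partners), 2 of 8 (other ATF4 and CHOP targets), 2 of 12 (synthesis and one-carbon enzymes) and 0 of 11 (eIF2 kinases, phosphatase subunits and eIF2B). Among other ATF4 and CHOP targets 7 of 9 were higher (4 by library totals). Gdf15, a stress cytokine, was 2.80, 6.17, 13.04 and 12.7 in the late controls and 6.40, 7.05, 24.3, 30.8 and 37.8 with KPT-330 (1.52 ± 0.17, adjusted p = 0.000192). Eif4ebp1, a translation repressor, rose by 0.93 ± 0.14 (0.000637). Of the C/EBP and related partners 2 of 3 were higher, Cebpb by 1.23 ± 0.31 (0.0121) from a level of 2.96 to 5.85 in the late controls. The upstream list of eIF2 kinases, phosphatase subunits and eIF2B was the one with a median near 0 (0.07) and 4 of 14 higher: Eif2ak3, which encodes PERK (0.92 ± 0.14, 0.000709), the eIF2 phosphatase subunits Ppp1r15a (0.84 ± 0.13, 0.00108) and Ppp1r15b (0.68 ± 0.11, 0.0014), and Eif2b4 (0.35 ± 0.10, 0.0167). By library totals that list had 2 higher and 6 lower, the 6 being Eif2ak4, Eif2b1, Eif2b3, Eif2b5, Eif2s1 and Gcn1l1, so its direction turned with the scaling. The 10 genes named with the largest late changes stayed past the threshold by library totals, at 0.54 (Eif2ak3) to 1.30 (Aldh1l2).

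**Figure D5:**
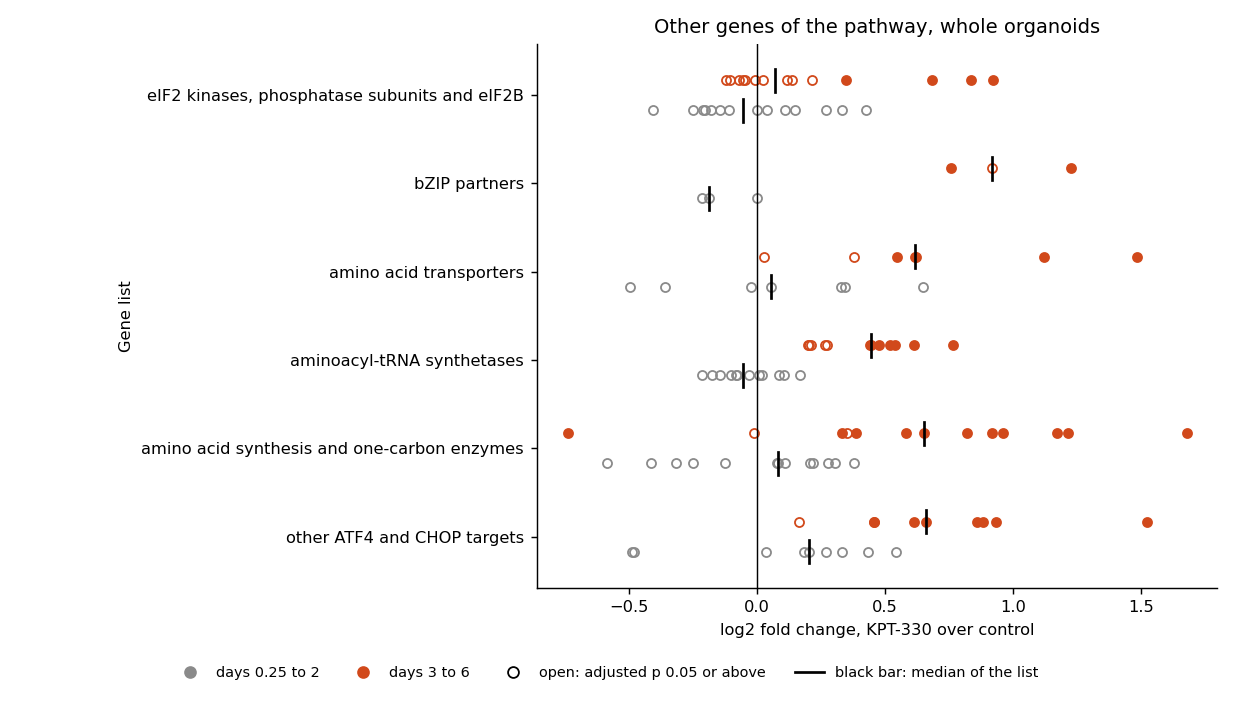
Log2 fold change of KPT-330 over control for the 58 other pathway genes by list, days 0.25 to 2 (grey) and days 3 to 6 (orange), filled where the adjusted p was under 0.05 and with a black bar at each list's median. No grey point is filled, and 36 orange points are, 35 of them to the right of 0.

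Without KPT-330, late against early, 6 of 58 were higher and 2 lower (edgeR, 17.4% of all genes called). Pycr1 of proline synthesis rose by 2.12 ± 0.31 (adjusted p = 0.00962) and Eif2ak3 by 1.30 ± 0.24 (0.0145), whereas Cth fell by 1.51 on the log2 scale (SE 0.19, 0.0092). Cth thus had opposite signs with time and with KPT-330: 94.7, 73.1, 63.9, 35.4, 23.8, 23.2 and 24.7 over the controls, and 92.6, 78.9, 92.8, 59.0, 109, 60.2, 41.9 and 54.3 with KPT-330. All calls of this contrast were lost without the day 1 library.

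Within cell types calls among the other pathway genes numbered 18 higher and 1 lower of 53 in early Paneth-like cells (9 and 2 by library totals) and 10 and 0 of 56 in Paneth-like cells (7 and 2). Gdf15 rose by 2.04 ± 0.59 in the early and 1.49 ± 0.21 in the mature group (edgeR adjusted p = 0.0388 and 0.000686), and Slc6a9, Psat1, Aldh1l2, Slc7a1, Vldlr, Sqstm1, Ppp1r15a and Nars were called higher in both. In enterocyte-like cells 0 of 56 were higher and 2 lower (4 lower without the KPT-330 cluster), the cystine transporter subunit Slc7a11 (-1.24 ± 0.23, 0.00584) and Mthfd1l (-0.94 ± 0.23, 0.0380). In enteroendocrine-like cells Slc7a1 (0.84 ± 0.19) and Slc38a2 (0.66 ± 0.12) were higher and Mthfd2 (-0.77 ± 0.19) lower, of 50. In stem I-like cells 3 of 49 were higher and 2 lower, with Slc38a2 at 0.61 ± 0.11 and Cth at -0.96 ± 0.29. None of 51 passed in stem III-like and none of 46 in early secretory-like cells by edgeR, where 859 and 518 of all genes had an unadjusted p under 0.05. Whether the types differ in their response was not tested.

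The genes were also compared in how they varied across the 15 ENR+CD libraries once each day's mean was taken out, as a description over libraries that share their days. Ddit3 and Slc3a2 were closest (Pearson r = 0.974), then Chac1 and Slc3a2 (0.963) and Atf5 and Slc3a2 (0.953), and Sesn2 was least like Atf3 (0.169) and Nupr1 (0.226). Outside all lists, the 5 of 8897 genes most like the summed level of the 10 were Fuca2 (0.994), Slc31a1 (0.988), Ctsb (0.988), Tspan13 (0.984) and Ctsc (0.983). Atf3, Nupr1 and Atf4, with the highest CPM, weigh most in that sum. Fuca2, Ctsb and Ctsc encode lysosomal or secreted hydrolases and Slc31a1 a copper transporter. Their median levels were 51.5, 87.2, 355, 150 and 30.2 in ENR+CD and 100.5, 132, 731, 238 and 60.9 with KPT-330.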

How the data were processed

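Deposited values were raw UMI counts per gene and cell, one table per library. Per the labels and the study's methods, the authors demultiplexed reads with bcl2fastq, aligned them to mm10 with STAR and counted UMIs with the Drop-seq pipeline, whose strand setting is not given in the sources used here. The authors did no normalization of these counts, and their merged table names the cells they kept after removing doublets and low-quality cells. Of 26229 barcodes, 23055 were within the stated limits (at least 500 genes, at most 30000 UMIs and at most 35% mitochondrial) and the 19877 named in the merged table were used. The genes, lists and markers were chosen with earlier results of these data known.

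Counts were summed per library, or per library and cell type with at least 20 cells, and tested in R 4.3.3 with edgeR 4.0.16 (quasi-likelihood test, TMM scaling, filterByExpr, Benjamini-Hochberg adjustment over all genes tested, threshold 0.05). KPT-330 was fitted early (days 0.25 to 2) and late (days 3 to 6) with day as a factor. ENR+CD late against early, and early against ENR+CV, were fitted over untreated libraries. Clusters came from Seurat 5.3.0 (3000 variable genes less 64 listed ones, 9 components, resolution 0.45), giving 17 clusters, and enterocyte and early enterocyte clusters were joined. Alternatives included DESeq2 1.42.0, library totals, no low-count filter and leaving out libraries or days. The fits were tested on simulated data. Named were the 10 genes, up to 10 other pathway genes per KPT-330 comparison by size among those past the threshold, and the 5 genes outside the lists most like the sum of the 10. Pathway genes named beyond these (Cbs, Ppp1r15a, Ppp1r15b, Eif2b4, those of the untreated contrast and those called in both Paneth groups) were chosen after their values were seen. Precision is set by the UMIs behind each value and covers counting error only where a value rests on 1 library.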

Additional observations from a re-analysis of the deposited data

Results flagged for a closer look

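Ddit3 in the late ENR+CD controls had 1 library apart from the rest: day 3, replicate 2, at 24.1 CPM, with the next at 34.4 (a gap of 0.861 of the group's range). Of 20 groups of 4 or 5 libraries examined, 1 was marked, and chance marks about 1 in 20. Day 3 is also the earliest day of that group.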

How the results depend on the processing

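Counts of all genes called moved most. KPT-330 early (64) gave 688 with no low-count filter, 179 with DESeq2 and 7 to 175 on leaving out days or libraries. KPT-330 late (3703) gave 5995 by library totals and 2044 to 4582 on leaving out. Late minus early (0) gave 1, 349 and 56 by library totals, no filter and DESeq2, and 0 to 164 on leaving out. Untreated late against early (2232) gave 3572 with no filter and 0 to 5159 on leaving out, and early ENR+CD against ENR+CV (34) gave 1212, 632 with DESeq2 and 0 to 2125. Stem II/III-like cells (114) gave 254 with no filter, 15 with DESeq2 and 39 to 255. With cells typed by their highest marker score, calls were 35 in stem III-like, 93 in early secretory-like and 159 in Paneth-like cells, and with at least 50 cells 133 in stem III-like. Added after seeing the data, enterocyte-like cells (251) gave 388 without the KPT-330 cluster and 167 over days 2 to 6. With the replicate block, untreated late against early gave 1062, early against ENR+CV 55, KPT-330 early 86 and late 4022. The numbers did not pair the libraries (r of replicate differences between groups -0.03 to 0.455). Signs that turned: Sesn2 late by totals (-0.034); against ENR+CV, Sesn2 by totals (-0.067), with the block (-0.049) and in cells with at least 1000 genes (-0.012), and Atf5 with the block (-0.019); untreated late against early, Atf5 (0.14) and Trib3 (0.19) with the block. On leaving out single libraries, untreated late against early ranged from -0.35 to 0.53 for Atf5 and -0.39 to 0.73 for Trib3. Against ENR+CV the ranges were -0.43 to 0.65 for Atf5, -0.42 to 0.61 for Chac1, -0.27 to 0.14 for Sesn2, -0.092 to 1.22 for Atf3, -0.014 to 1.10 for Ddit3, -0.90 to 0.19 for Trib3 and -0.42 to 0.28 for Slc3a2. The cause was not tested. Untreated Atf3, Ddit3 and Chac1 passed the threshold with no filter and with DESeq2.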

Other observations

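The unfolded protein response has further arms that were listed beside the stress genes. With KPT-330 late, 14 of 14 ATF6 and XBP1 targets were called higher by edgeR, with a median log2 fold change of 0.54, beside 15.3% of all genes called higher. By library totals 4 of 14 were called higher (median 0.15). Herpud1, which helps remove misfolded proteins from the endoplasmic reticulum, rose by 1.06 ± 0.10 (adjusted p = 8.23e-05). Early, 0 of 14 were called by edgeR (median 0.26). Without KPT-330, late against early, 6 of 14 were called higher (4 by library totals, and 7.99% of all genes), with Herpud1 at 1.13 ± 0.21 (adjusted p = 0.0141). Of 14 p53 targets 6 were called higher late (median 0.39), but by library totals 1 was higher and 1 lower (median 0.02). Early, edgeR called 0 of the 14 (median 0.45), where 0.351% of all genes were called higher.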
